A study of Mus musculus with 2 samples.

Results

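The genes described here are 10 genes of endoplasmic reticulum (ER) stress and secretory protein folding, found by exact symbol among the 32285 genes of the mouse colon matrices. They are the stress sensors Ern1, Ern2 and Atf6, the transcription factors Xbp1, Creb3l1 and Creb3l4, the chaperone Hspa5, the disulfide enzymes Pdia4 and Pdia5, and Sel1l, which belongs to the degradation machinery of the ER. All 10 were present, each as 1 gene. Frozen colon was profiled by single-nucleus RNA sequencing in 2 libraries, 1 from WT littermates and 1 from HIF-1α KO mice, which carry floxed HIF-1α alleles and a Cre recombinase under the Ncr1 (NKp46) promoter (Ncr1cre+ Hif-1α fl+/fl+). By this design the deletion is limited to NKp46+ lymphoid cells, and HIF-1α is not targeted in epithelial cells. Mice of both groups, aged 8 to 12 weeks, received 2% dextran sodium sulfate (DSS) in drinking water in 4 cycles of 3 days with 4 days of recovery, and tissue was taken on day 28. Each library was 1 pool of 3 animals, so no difference between the genotypes has a replicate check, no test was made, and all intervals below cover counting error only.

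The WT library held 13492810 unique molecular identifiers (UMIs, each standing for 1 captured RNA molecule) and the HIF-1α KO library 25489277. Of 9668 barcodes in both files, 9586 nuclei with 400 to 5000 detected genes and at most 10% mitochondrial UMIs were kept, 4884 WT and 4702 HIF-1α KO, and 3 barcodes occurred in both libraries. The median depth was 2058.5 UMIs per nucleus in WT and 4197 in HIF-1α KO. Levels are therefore given as CPM, the UMIs of a gene per 1000000 UMIs of a class, with exact 95% Poisson intervals. The targeted gene Hif1a had 172 CPM (165 to 179.5) in WT and 199 CPM (193 to 205) in HIF-1α KO over all nuclei. Ncr1 itself had 1 UMI in WT and 0 in HIF-1α KO, so these files hold no check of the deletion in the cells that carry it.

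Nuclei were clustered without the 10 genes and without 162 further genes of the secretory pathway, and clusters were named by other marker genes. Early goblet nuclei (287 WT, 449 HIF-1α KO) formed 1 cluster led by Slc12a8, 9030622O22Rik and Spdef, the last a transcription factor of goblet maturation. Mature goblet nuclei (284 and 497) were those of 2 clusters, 1 led by Clca1, Fer1l6 and Fcgbp and the other by St6gal1, Scin and Capn9. Of the 10 markers listed for early goblet cells, 6 were higher in the early than in the mature class in both libraries (Hes6, Kit, Reg4, Sox4, Spdef and Tox), while Atoh1, the factor that starts the secretory fate, was lower, with 39.1 against 127 CPM in WT and 50.6 against 52.6 CPM in HIF-1α KO. Of the 8 markers listed for mature goblet cells, 7 were higher in the mature class in both libraries, and Slc12a8, which leads the early cluster, was higher in the early class. The names early and mature thus rest on most and not all of their markers. Absorptive nuclei (526 and 833), immune nuclei (162 and 281) and stromal nuclei (520 and 261, fibroblasts and smooth muscle) completed the 5 main classes. Mature goblet nuclei held 3816 CPM of Clca1 in WT and 3484 CPM in HIF-1α KO, against 74.2 and 155 CPM in absorptive nuclei, and Ptprc, the common leukocyte antigen, reached 674 and 1103 CPM in immune nuclei against 20.4 and 12.1 CPM in absorptive nuclei. The immune class held B cell, myeloid and T or innate lymphoid clusters, and no cluster of plasma cells was found. Stem, cycling, crypt enterocyte and enteroendocrine nuclei were used with these 5 to give the order of levels over 9 classes. Clusters without a name held 24.7% of the WT library and 8.81% of the HIF-1α KO library. Where a class mixes several kinds of cells, fewer cells of a kind and less RNA per cell cannot be told apart in its summed level.

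Secretory cells fold large amounts of protein in the ER, and goblet cells, which make the mucin Muc2, are among the most heavily loaded cells of the gut. When unfolded protein builds up, the chaperone Hspa5 (BiP) leaves the sensors. Ern1 (IRE1α) and its mucosal relative Ern2 (IRE1β) belong to the branch that cuts Xbp1 RNA so that the transcription factor XBP1s can be made, while Atf6 travels to the Golgi and is cleaved to an active factor. Creb3l1 and Creb3l4 are membrane-bound factors cleaved in a like manner. Sel1l holds the ubiquitin ligase Syvn1 in the ER membrane, from where misfolded proteins are passed to the proteasome.

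The 10 genes fell into 3 patterns over the classes. Ern2, Creb3l1 and Pdia5 were highest in early goblet nuclei, apart from every class that is not goblet in both libraries, and the sparse Creb3l4 had the same first class. Atf6 was highest in enteroendocrine nuclei and next in mature goblet nuclei. Ern1, Xbp1, Hspa5, Pdia4 and Sel1l formed a broad pattern over the 9 classes. For each of them the interval of every class overlapped that of the next in the order. Classes farther from each other in the order could still differ. Early goblet and absorptive nuclei had intervals apart for Ern1 and Xbp1 in both libraries. The plot of levels by class shows all values.

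**Figure D1:**
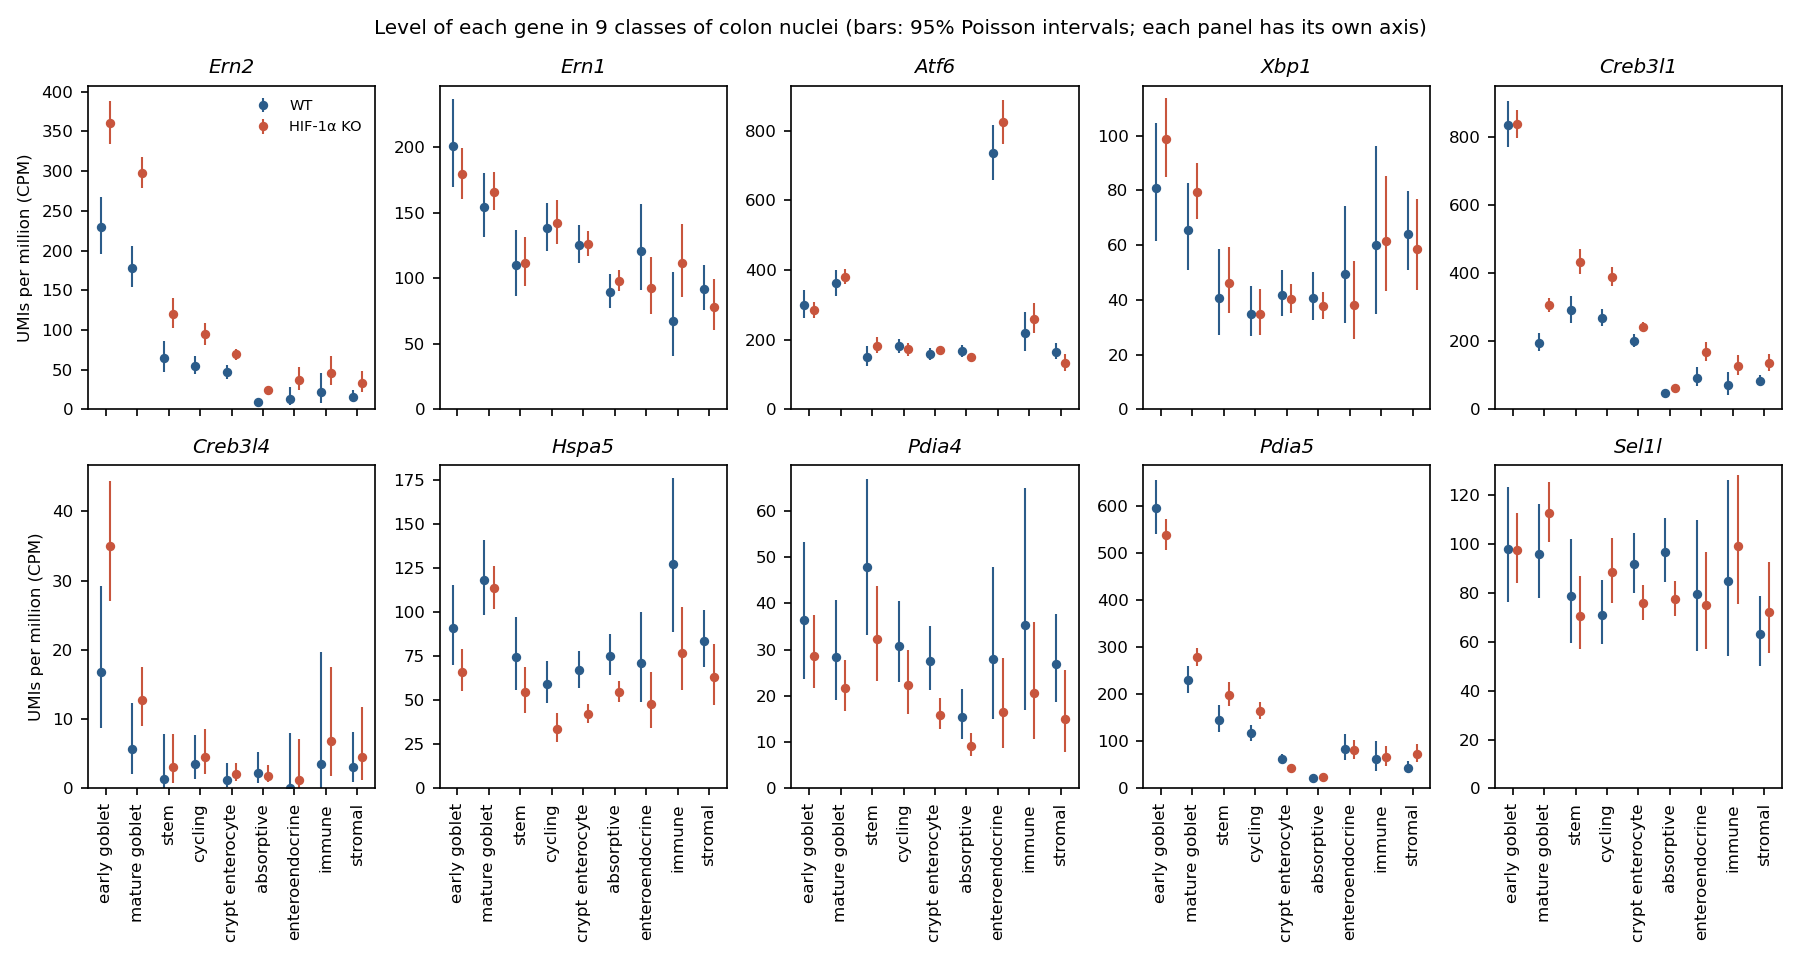
Level of each of the 10 genes in CPM (vertical axis, 1 scale per panel) in 9 classes of nuclei (horizontal axis) of the WT (blue) and HIF-1α KO (red) library, with 95% Poisson intervals. Creb3l1 stood at 835 CPM in WT and 837 CPM in HIF-1α KO early goblet nuclei, and Atf6 at 735 and 823 CPM in enteroendocrine nuclei.

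Ern2 (ENSMUSG00000030866, chromosome 7 of GRCm38, 122169893 to 122186207, minus strand) encodes the IRE1 kinase and ribonuclease of mucosal epithelium. In WT it had 229 CPM (195 to 267) in early goblet, 178 CPM (154 to 206) in mature goblet, 64.7 CPM (47.4 to 86.3) in stem, 54.5 CPM (43.97 to 66.9) in cycling and 46.5 CPM (38.3 to 55.9) in crypt enterocyte nuclei. In HIF-1α KO the same classes had 360.2, 298, 119.9, 94.5 and 69.3 CPM. Both goblet classes lay above all other classes in both libraries with intervals apart, and the intervals of early and mature goblet nuclei overlapped in WT but not in HIF-1α KO. Absorptive nuclei were lowest, at 8.60 CPM (5.18 to 13.4) in WT and 24.4 CPM (20.6 to 28.8) in HIF-1α KO. These levels were no higher than those of stromal nuclei, 15.8 CPM (9.67 to 24.5) and 33.3 CPM (22.3 to 47.8), a class that should lack this epithelial transcript, and so are not read as expression here. Whether absorptive nuclei make any Ern2 was not tested. By share, 40.1% (34.4 to 45.99, exact binomial) of WT early goblet nuclei held an Ern2 UMI at a median depth of 2090 UMIs, against 3.08% (1.77 to 4.95) of stromal nuclei at 1955 UMIs. In HIF-1α KO the shares were 69.5% (65.0 to 73.7) at 3706 UMIs and 8.05% (5.05 to 12.04) at 2373 UMIs. With nuclei thinned to 1000 UMIs, which leaves out those below that depth (no WT nucleus, and 1 early goblet and 8 stromal nuclei of HIF-1α KO), the shares were 20.2% and 1.35% in WT and 27.9% and 1.98% in HIF-1α KO, so early goblet nuclei stayed above stromal nuclei at matched depth.

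Ern1 (ENSMUSG00000020715, chromosome 11 of GRCm38, 106394650 to 106487852, minus strand), the IRE1 form found in most tissues, was measured in every class. It ran from 67.1 CPM (40.4 to 105) in immune to 201 CPM (169.6 to 237) in early goblet nuclei of WT, and from 78.1 CPM (60.7 to 99.01) in stromal to 179 CPM (161 to 199) in early goblet nuclei of HIF-1α KO. Early goblet, mature goblet, cycling and crypt enterocyte nuclei were the first 4 in the order in both libraries.

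Atf6 (ENSMUSG00000026663, chromosome 1 of GRCm38, 170704674 to 170867771, minus strand) stood out in enteroendocrine nuclei, the hormone cells of the gut, with 735 CPM (659 to 817) in WT and 823 CPM (761 to 889) in HIF-1α KO. Mature goblet nuclei followed with 361 CPM (326 to 399) and 381 CPM (359 to 403), and early goblet nuclei with 300.3 CPM (262 to 343) and 284 CPM (261 to 309). Immune nuclei came next with 219 CPM (168 to 281) and 260 CPM (220.3 to 305), overlapping early goblet nuclei in both libraries. The other 5 classes lay between 133 and 183 CPM. The gene spans 163 kb, and 2 small nuclear RNA genes lie within it on the same strand.

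Xbp1 (ENSMUSG00000020484, chromosome 11 of GRCm38, 5520659 to 5525893, plus strand) had its highest level in early goblet nuclei, 81.02 CPM (61.5 to 105) in WT and 98.7 CPM (85.1 to 114) in HIF-1α KO. Mature goblet nuclei had 65.4 CPM (50.9 to 82.8) and 79.3 CPM (69.6 to 90.1), and stromal nuclei 64.1 CPM (50.9 to 79.7) and 58.6 CPM (43.6 to 77.01). Absorptive nuclei had 40.7 CPM (32.7 to 50.1) and 37.7 CPM (32.96 to 43.02), below early goblet nuclei with intervals apart in both libraries. UMIs per gene do not tell the cut form of Xbp1 RNA from the uncut form, which differ by a stretch of 26 bases. That stretch is shown because it is what IRE1 removes, with its bases in capitals and 3 bases of the transcript on each side, as found in 3 protein-coding GENCODE M21 transcripts of the gene.
Xbp1: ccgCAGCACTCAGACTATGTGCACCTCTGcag

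Creb3l1 (ENSMUSG00000027230, chromosome 2 of GRCm38, 91982328 to 92024502, minus strand), a membrane-bound factor also named OASIS, had 835 CPM (769.7 to 905) in WT and 837 CPM (796 to 879) in HIF-1α KO in early goblet nuclei. Mature goblet nuclei had 195 CPM (169.6 to 224) and 306 CPM (287 to 327). Stem nuclei, with 291 CPM (253 to 334) and 432 CPM (397 to 469), and cycling nuclei, with 269 CPM (244 to 295) and 388 CPM (361 to 416), lay above mature goblet nuclei in both libraries with intervals apart. Creb3l1 thus had higher levels in stem, cycling and early goblet nuclei than in the mature goblet class as a whole, whose clusters differ as given below. Absorptive nuclei were lowest at 48.4 CPM (39.7 to 58.5) and 63.2 CPM (56.95 to 69.9). A Creb3l1 UMI was found in 76.7% (71.3 to 81.4) of WT and 87.3% (83.9 to 90.2) of HIF-1α KO early goblet nuclei, against 15.4% (12.4 to 18.8) and 23.8% (18.7 to 29.4) of stromal nuclei at the median depths given above. Thinned to 1000 UMIs, the shares were 49.5% and 50.9% in early goblet and 7.69% and 11.5% in stromal nuclei.

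Creb3l4 (ENSMUSG00000027938, chromosome 3 of GRCm38, 90237500 to 90243512, minus strand), a related factor, was sparse, with 43 UMIs in all WT and 155 in all HIF-1α KO nuclei. Of these, 12 and 67 were in early goblet and 6 and 38 in mature goblet nuclei. Its level was 16.8 CPM (8.66 to 29.3) and 34.98 CPM (27.1 to 44.4) in early goblet nuclei, and at most 6.84 CPM in the 7 classes that are not goblet. In WT enteroendocrine nuclei it had 0 UMIs, which at this depth allows up to 6.46 CPM (3 UMIs).

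Hspa5 (ENSMUSG00000026864, chromosome 2 of GRCm38, 34771970 to 34777547, plus strand), the main Hsp70 chaperone of the ER, had 119 CPM (98.7 to 141) in WT and 114 CPM (102 to 126) in HIF-1α KO in mature goblet nuclei. Immune nuclei had 127 CPM (89.01 to 176) and 76.98 CPM (56.2 to 103), and within them the WT myeloid nuclei reached 210.4 CPM (127 to 329) on 19 UMIs. Cycling nuclei were lowest in both libraries, with 59.3 CPM (48.2 to 72.1) and 33.9 CPM (26.3 to 43.02). Pdia4 (ENSMUSG00000025823, chromosome 6 of GRCm38, 47796141 to 47813430, minus strand), a disulfide isomerase found in complex with Hspa5, was highest in stem nuclei with 47.8 CPM (33.1 to 66.8) and 32.3 CPM (23.3 to 43.6) and lowest in absorptive nuclei with 15.4 CPM (10.7 to 21.5) and 9.27 CPM (6.98 to 12.1). A microRNA gene lies within Pdia4 on the same strand, as one does within Pdia5.

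Pdia5 (ENSMUSG00000022844, chromosome 16 of GRCm38, 35397312 to 35490873, minus strand), a disulfide isomerase known to act on Atf6, had a steep order. Early goblet nuclei had 597 CPM (541 to 656) in WT and 539 CPM (506 to 573) in HIF-1α KO, mature goblet nuclei 230.4 CPM (202 to 261) and 279.5 CPM (261 to 299), and stem nuclei 146 CPM (119.5 to 177) and 199.8 CPM (176 to 226). Absorptive nuclei had 21.7 CPM (16.01 to 28.8) and 24.4 CPM (20.6 to 28.8), below stromal nuclei with 44.3 CPM (33.5 to 57.6) and 73.5 CPM (56.6 to 93.9). The early goblet, mature goblet and stem levels were apart from each other in both libraries. Sel1l (ENSMUSG00000020964, chromosome 12 of GRCm38, 91806043 to 91849157, minus strand) ran from 63.3 CPM (50.2 to 78.8) in stromal to 97.8 CPM (76.2 to 124) in early goblet nuclei of WT, and from 70.7 CPM (56.99 to 86.7) in stem to 113 CPM (101 to 125) in mature goblet nuclei of HIF-1α KO, so that its first and last class differed between the libraries.

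The promoters of Hspa5 and Pdia5 are shown because these genes stand for the broad and the goblet pattern. RefSeq windows of 300 bases, 250 before and 50 after a gene's start (GRCm38.p6), were matched for 7 of the 10 genes, namely Creb3l4, Ern1, Hspa5, Pdia4, Pdia5, Sel1l and Xbp1, and not for Ern2, Creb3l1 and Atf6. They were searched on both strands for the ER stress response element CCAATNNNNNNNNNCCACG, the sequence bound by ATF6 and XBP1 together with NF-Y, and for its CCACG end alone, which every full match contains. Creb3l4 has 3 windows and each of the other genes 1. The full element was in the window of Hspa5 and of no other of the 7 genes, and in 0.119% of all 32851 windows. The CCACG end was in 7 of the 9 windows of these genes, and in 32.8% of all windows. Counted by gene, it was in 6 of 7 members, all but Xbp1, and in 91 of 136 other pathway genes (66.9%). A match is a description of the letters, not a bound site. The Hspa5 window lies at chr2:34771840-34772139 on the plus strand, with both ends of the element in capitals.
Hspa5: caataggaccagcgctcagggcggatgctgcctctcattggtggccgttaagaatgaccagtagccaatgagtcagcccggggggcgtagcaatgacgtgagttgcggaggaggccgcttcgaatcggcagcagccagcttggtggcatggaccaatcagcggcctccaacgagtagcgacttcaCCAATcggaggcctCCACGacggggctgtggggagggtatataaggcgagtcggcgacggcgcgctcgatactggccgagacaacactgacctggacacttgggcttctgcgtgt
The Pdia5 window lies at chr16:35490824-35491123 on the minus strand, with the CCACG end, here on the opposite strand, in capitals.
Pdia5: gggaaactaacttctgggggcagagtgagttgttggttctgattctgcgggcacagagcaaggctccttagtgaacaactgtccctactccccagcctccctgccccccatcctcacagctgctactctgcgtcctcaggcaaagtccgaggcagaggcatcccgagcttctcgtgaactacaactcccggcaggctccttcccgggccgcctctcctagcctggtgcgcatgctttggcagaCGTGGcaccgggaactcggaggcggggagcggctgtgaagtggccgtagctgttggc
Among the other pathway genes, 9 of 136 with a window (6.62%) held the element. The elements are shown beside that of Hspa5, each read in its own direction with its CCAAT and CCACG ends in capitals, and for Hsp90b1 1 of its 2 matches is printed.
Hspa5: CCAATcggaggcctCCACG
Calr: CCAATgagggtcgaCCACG
Canx: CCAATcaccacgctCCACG
Creld2: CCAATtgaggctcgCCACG
Derl3: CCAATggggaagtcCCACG
Dnajc3: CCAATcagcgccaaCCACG
Ero1b: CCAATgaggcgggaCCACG
Hsp90b1: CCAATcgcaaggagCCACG
Pdia6: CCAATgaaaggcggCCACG
Syvn1: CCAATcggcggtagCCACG
Of the 9 pathway genes with the element, 7 had at least 20 UMIs over mature goblet and absorptive nuclei in each library, all but Creld2 and Derl3. None of the 7 was at least 2-fold higher or lower in mature goblet nuclei in both libraries, where 5.78% of all genes measured were called higher. With so few genes, 0 called does not set them apart from all genes. By the lower of both libraries Dnajc3, a co-chaperone of Hspa5, was highest, with log2 ratios of 1.08 in WT and 0.95 in HIF-1α KO. Ero1b, an oxidase of the ER that the files list as Ero1lb, was the 1 gene of the 7 lower in mature goblet nuclei in both libraries, with -0.46 in WT and -0.78 in HIF-1α KO. These genes were singled out after their values were seen.

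The first comparison asked which of the genes were higher in goblet than in absorptive nuclei, with at least 2-fold in both libraries and at least 20 UMIs over both classes in each library as the call. In mature goblet nuclei 4 of 9 measured genes were called (Ern2, Atf6, Creb3l1 and Pdia5), against 5.78% of 9560 genes. Ern2 was higher by 20.7-fold in WT and 12.2-fold in HIF-1α KO on an absorptive level no higher than the stromal one. Pdia5 was 10.6-fold and 11.4-fold higher. Its absorptive level was below the stromal one, but whether stromal nuclei make Pdia5 was not tested. Creb3l1 was 4.04-fold and 4.85-fold and Atf6 2.16-fold and 2.54-fold higher. Over the settings the log2 ratio of Ern2 ran from 3.76 to 5.32 in WT and from 3.07 to 3.80 in HIF-1α KO. That of Pdia5 ran from 2.58 to 3.62 and from 2.86 to 3.73, and that of Creb3l1 from 1.335 to 2.415 and from 1.54 to 2.63. The median log2 ratio of the 9 genes was 0.89 in WT and 1.23 in HIF-1α KO, against 0.02 and 0.14 over all genes measured. Creb3l4 had too few UMIs for this comparison.

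In early goblet nuclei 4 of 9 genes were called against absorptive nuclei (Ern2, Creb3l1, Pdia4 and Pdia5), against 13.4% of 9428 genes. Pdia5 was higher by 27.5-fold in WT and 22.1-fold in HIF-1α KO, Ern2 by 26.7-fold and 14.7-fold, and Creb3l1 by 17.3-fold and 13.2-fold. The absorptive levels of Pdia5 and Ern2 were no higher than the stromal ones, and the part of free RNA in them was not tested. Over the settings the log2 ratio of Pdia5 ran from 4.01 to 4.87 in WT and from 4.27 to 4.91 in HIF-1α KO. That of Ern2 ran from 4.09 to 5.68 and from 3.48 to 4.06. Pdia4 was 2.36-fold and 3.10-fold higher. Ern1 at 2.25-fold and 1.83-fold and Xbp1 at 1.99-fold and 2.61-fold reached 2-fold in only 1 of the libraries, and Sel1l had ratios of 1.01 and 1.26. The median log2 ratio of the 9 genes was 1.17 in WT and 1.39 in HIF-1α KO, against 0.13 and 0.31 over all genes measured. The plot of goblet over absorptive ratios shows that Ern2, Creb3l1 and Pdia5 stood apart from the other 6 genes in early goblet nuclei.

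**Figure D2:**
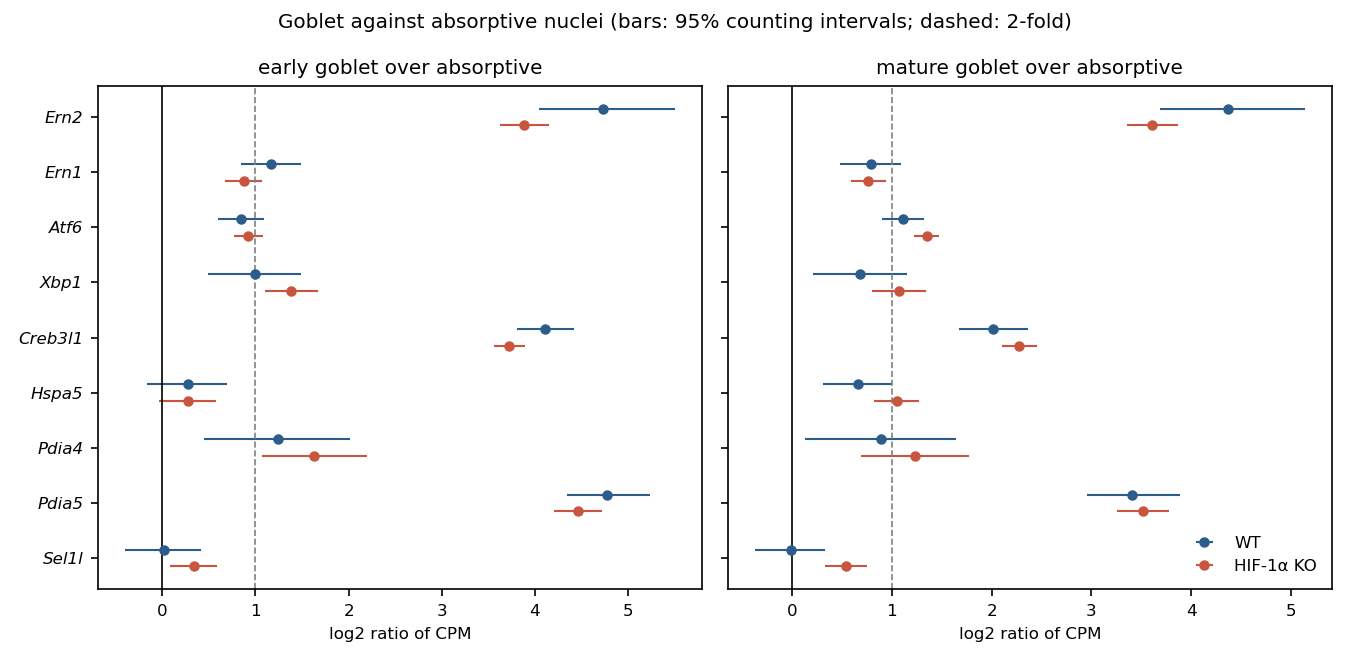
The log2 ratio of CPM of early goblet (left) and mature goblet (right) over absorptive nuclei for 9 genes, with 95% counting intervals, in WT (blue) and HIF-1α KO (red), and the dashed line at 2-fold. Pdia5 lies at 4.78 in WT and 4.46 in HIF-1α KO in early goblet nuclei and at 3.41 and 3.52 in mature goblet nuclei.

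Against stromal nuclei, 4 of 9 genes were called in mature goblet nuclei (Ern2, Atf6, Creb3l1 and Pdia5), against 8.73% of 9442 genes. The count was 2 with classes set by the marker score of each nucleus, against 6.26% of all genes, since Atf6 and Creb3l1 were then under 2-fold in WT. Ern2 was higher by 11.3-fold in WT and 8.94-fold in HIF-1α KO, and Xbp1 had ratios of 1.02 in WT and 1.35 in HIF-1α KO. Between immune and stromal nuclei 0 of 9 genes were called, against 6.00% of 8228 genes called higher in immune nuclei. Atf6 had ratios of 1.32 in WT and 1.95 in HIF-1α KO there, and Hspa5 of 1.51 and 1.22.

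Between the stages of goblet cells, 0 of 9 genes were at least 2-fold higher in mature than in early goblet nuclei, against 3.25% of 8164 genes, and 1 of 9 was at least 2-fold lower (Creb3l1), against 3.36% of 8164 genes. Creb3l1 had a ratio of mature over early goblet of 0.234 in WT and 0.366 in HIF-1α KO. Pdia5 had ratios of 0.386 and 0.519 and so missed the call in 1 library. Hspa5 had log2 ratios of 0.38 (-0.06 to 0.84) and 0.78 (0.48 to 1.08), and Atf6 of 0.27 (0.02 to 0.51) and 0.42 (0.27 to 0.57). The count of genes called lower was 2 in place of 1 without integration of the libraries, against 6.37% of all genes. It was also 2 at a clustering resolution of 0.5 (5.18% of all genes) and when nuclei were thinned (2.775%). The ratio of Hspa5 in WT turned to -0.12 when nuclei were thinned.

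The 3 goblet clusters gave a finer view. The early cluster, the cluster led by St6gal1, Scin and Capn9 and the Clca1 cluster had 835, 339 and 139.5 CPM of Creb3l1 in WT and 837, 483 and 209 CPM in HIF-1α KO. Pdia5 had 597, 458 and 142 CPM in WT and 539, 444 and 189 CPM in HIF-1α KO. Both genes thus had their lowest goblet level in the Clca1 cluster in both libraries. For Creb3l1, stem nuclei (291 CPM in WT and 432 CPM in HIF-1α KO) and cycling nuclei (269 and 388 CPM) lay above the Clca1 cluster. Both lay below the cluster led by St6gal1, Scin and Capn9. Hspa5 was highest there, with 90.8, 67.8 and 138 CPM in WT and 66.3, 76.3 and 134 CPM in HIF-1α KO. Atf6 had 300.3, 292 and 388 CPM in WT and 284, 297 and 427 CPM in HIF-1α KO. Ern2 had 229, 278 and 139.5 CPM in WT and 360.2, 354 and 267 CPM in HIF-1α KO, lowest in the Clca1 cluster. With the Clca1 cluster alone as mature goblet, a choice made after the data were seen, 2 of the genes were called lower than in early goblet nuclei, against 6.59% of all genes under the same choice.

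**Figure D3:**
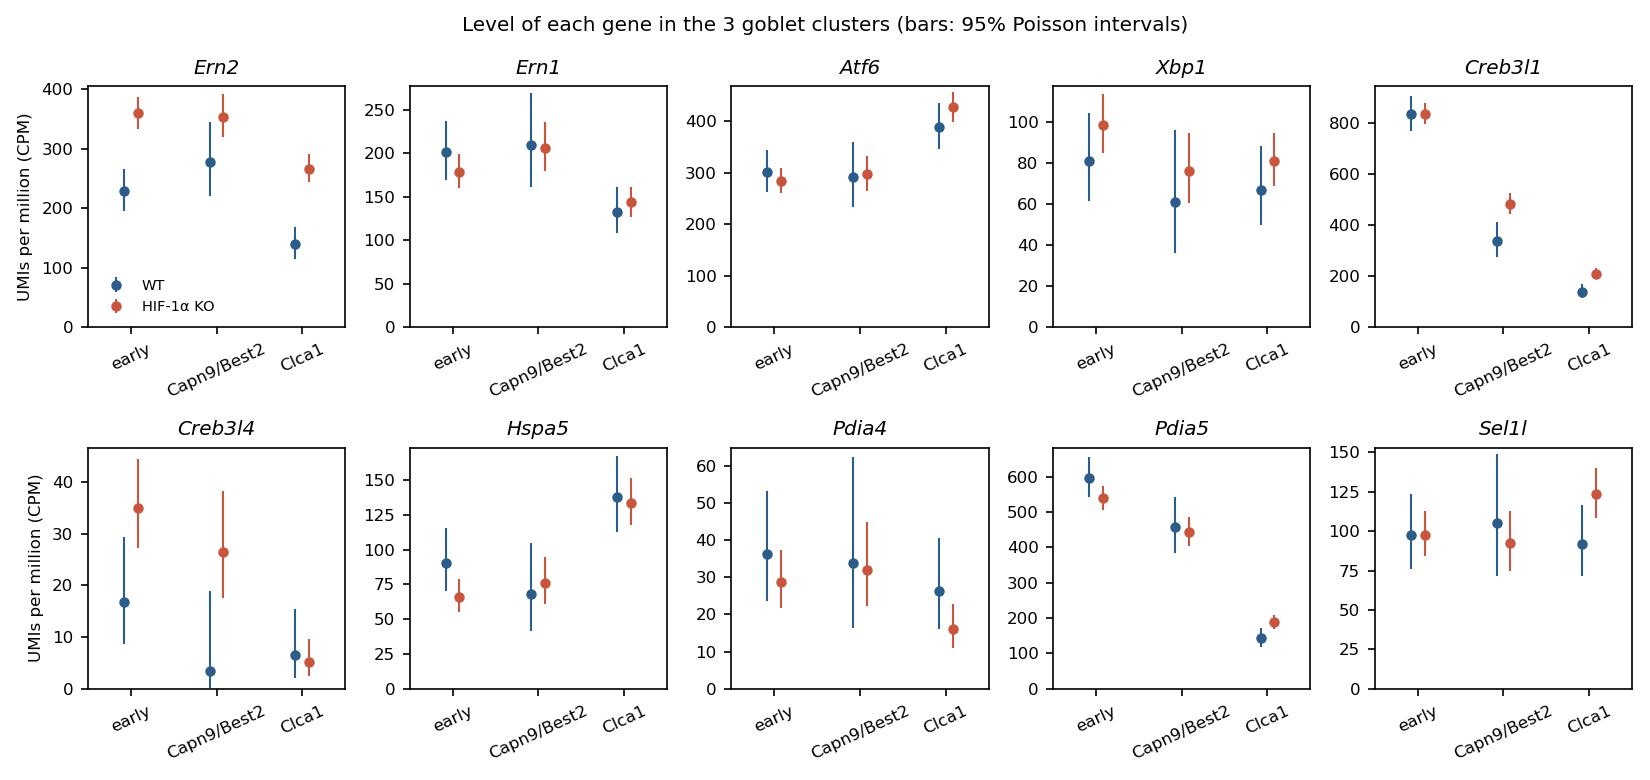
Level of each gene in CPM (vertical axis, 1 scale per panel) in the early cluster, the cluster led by St6gal1, Scin and Capn9 (drawn as Capn9/Best2) and the Clca1 cluster, with 95% Poisson intervals, in WT (blue) and HIF-1α KO (red). Creb3l1 and Pdia5 are lowest in the Clca1 cluster and Hspa5 and Atf6 are highest there in both libraries.

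The second comparison set the HIF-1α KO library beside the WT library within each class, with a ratio of at least 2-fold in either direction and at least 50 UMIs in both libraries together as the call. In early goblet nuclei 1 of 10 genes was called (Creb3l4), against 5.84% of 6844 genes, and in mature goblet nuclei 0 of 9, against 6.42% of 7574 genes. In absorptive nuclei 1 of 9 was called (Ern2), against 8.57% of 9223 genes. In immune nuclei 0 of 7 were called, against 7.42% of 3881 genes, and in stromal nuclei 0 of 7, against 3.89% of 6656 genes. With so few members, 0 or 1 called in a class does not set them apart from all genes.

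Ern2 was higher in HIF-1α KO in all 6 classes with enough UMIs, and its interval lay above 0 in each of the 6. The classes of a genotype come from 1 library and share its depth and free RNA, so the same direction in several classes is not a replicate. The share of all genes with 1 direction in every class was not counted. Both limits hold for the counts of classes given below for Creb3l1, Hspa5 and Pdia4. The log2 ratio of HIF-1α KO over WT was 0.65 (0.41 to 0.91) in early goblet, 0.74 (0.51 to 0.98) in mature goblet, 0.89 (0.41 to 1.40) in stem, 0.79 (0.43 to 1.17) in cycling and 0.58 (0.27 to 0.89) in crypt enterocyte nuclei. In absorptive nuclei it was 1.51 (0.81 to 2.28), on levels no higher than the stromal ones, and when nuclei were thinned it was 1.23, on fewer UMIs than the call requires. Transcripts that goblet cells make in bulk moved with this value, all 6 of the 6 examined (Muc2, Fcgbp, Clca1, Zg16, Tff3 and Spink4) being higher in HIF-1α KO in absorptive nuclei and none at 0. Their summed level in absorptive nuclei was 932 CPM in WT and 1455 CPM in HIF-1α KO, and in mature goblet nuclei it was 22070 and 17300 CPM. The absorptive sum was thus 4.23% and 8.41% of the mature goblet one, through a higher absorptive and a lower mature goblet level. Ern2 had 4.82% and 8.20% of its mature goblet level, which itself was higher in HIF-1α KO (178 and 298 CPM). Of the 6, Tff3 (17.2 and 53.1 CPM) and Spink4 (41.2 and 119 CPM) differed between the libraries in absorptive nuclei by at least as large a ratio as Ern2, and the other 4 by a smaller one. In stromal nuclei the mucus transcripts stood at 5.78% and 12.2% and Ern2 at 8.88% and 11.2%. Immune nuclei held 1550 and 3182 CPM of the mucus transcripts, or 7.02% and 18.4%, and Ern2 stood there at 11.9% and 15.5%. Muc2, the most abundant of the 6 in absorptive nuclei, had 390 and 516 CPM there. The part of free RNA in the ratios outside goblet nuclei was not tested.

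Goblet nuclei also took larger shares of the HIF-1α KO library, with 5.88% (5.23 to 6.57) for early goblet nuclei in WT and 9.55% (8.72 to 10.4) in HIF-1α KO and 5.82% (5.18 to 6.51) and 10.6% (9.71 to 11.5) for mature goblet nuclei, beside the difference in unnamed clusters given above. Within mature goblet nuclei, mitochondrial UMIs made up 0.331% in WT and 0.481% in HIF-1α KO, and in early goblet nuclei 0.106% and 0.172%. They made up 0.599% and 1.13% in absorptive, 0.155% and 0.325% in immune and 0.165% and 0.366% in stromal nuclei, and so were higher in HIF-1α KO in all 5 main classes. The part of these differences between the libraries in the ratios was not tested.

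Creb3l1 did not follow Ern2 in early goblet nuclei, where its log2 ratio was 0.00 (-0.13 to 0.14). It was higher in HIF-1α KO in the other 8 classes with intervals above 0, among them mature goblet with 0.65 (0.43 to 0.87), stem with 0.57 (0.34 to 0.81) and stromal nuclei with 0.72 (0.33 to 1.11). In immune nuclei the ratio was 0.84 (0.11 to 1.63) on 20 WT and 74 HIF-1α KO UMIs, and it was -0.03 with classes set by the marker score of each nucleus. Creb3l4 in early goblet nuclei had a log2 ratio of 1.06 (0.16 to 2.08), on 12 WT and 67 HIF-1α KO UMIs. Its call was lost under that setting, when nuclei were thinned and when all deposited barcodes were used. The ratio of Creb3l4 stayed above 0 and ran from 0.72 to 1.31 over the settings. Pdia5 had 0.28 (0.07 to 0.49) in mature goblet and -0.15 (-0.31 to 0.02) in early goblet nuclei. The Clca1 cluster, where Pdia5 is low, held 759700 of 1054638 mature goblet UMIs in WT and a smaller part, 1926487 of 2987686, in HIF-1α KO. By the cluster levels given above, Pdia5 was higher in HIF-1α KO in the Clca1 cluster and not in the one led by St6gal1.

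Hspa5 was lower in HIF-1α KO in all 9 classes, and its interval lay below 0 in 4 of them. Its log2 ratio was -0.81 (-1.28 to -0.35) in cycling, -0.72 (-1.39 to -0.05) in immune, -0.67 (-0.96 to -0.37) in crypt enterocyte and -0.45 (-0.73 to -0.17) in absorptive nuclei. The immune class held 100 B cell, 50 myeloid and 12 T or innate lymphoid nuclei in WT and 156, 74 and 51 in HIF-1α KO. The part of this make-up in the immune ratios was not tested. In mature goblet nuclei, where the gene was high, the ratio was -0.06 (-0.36 to 0.24). Pdia4 was lower in HIF-1α KO in all 6 classes with enough UMIs, with intervals below 0 in 2 of them, crypt enterocyte with -0.79 (-1.26 to -0.31) and absorptive nuclei with -0.73 (-1.37 to -0.07). The summed level of the immunoglobulin transcripts Igha, Igkc and Jchain was also lower in HIF-1α KO. It was 71.0 CPM in WT and 33.9 CPM in HIF-1α KO in absorptive, 49.4 and 21.2 CPM in crypt enterocyte and 48.0 and 19.7 CPM in cycling nuclei. Immune nuclei had 480 and 152 CPM and mature goblet nuclei 83.4 and 22.1 CPM. The part of free RNA in the ratios of Hspa5 and Pdia4 was not tested. The intervals of Ern1, Atf6 and Xbp1 included 0 in all 9 classes on the CPM scale. Sel1l had a log2 ratio of -0.32 (-0.56 to -0.08) in absorptive and of -0.27 (-0.51 to -0.03) in crypt enterocyte nuclei. Scaling by TMM factors moved every log2 ratio by 0.14 in absorptive nuclei, where the intervals of Pdia4 (-1.24 to 0.07) and Sel1l (-0.42 to 0.06) then included 0 and that of Ern1 (0.03 to 0.51) lay above it. In stromal nuclei TMM moved the ratios by -0.08, and the intervals of Atf6 (-0.73 to -0.06) and Hspa5 (-0.99 to -0.01) then lay below 0. The median log2 ratio over all genes measured lay between -0.08 and 0.17 in the 5 main classes.

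**Figure D4:**
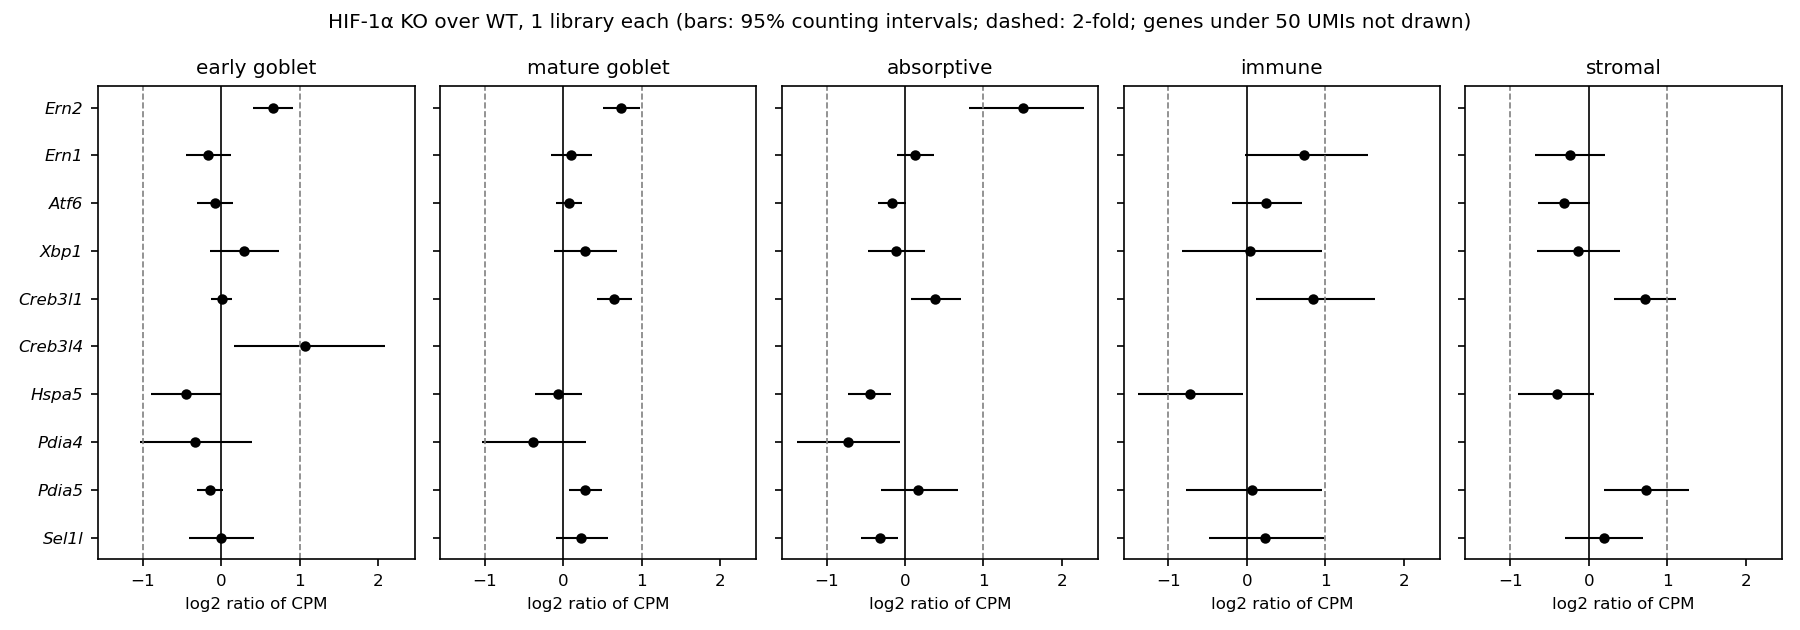
The log2 ratio of CPM of HIF-1α KO over WT (horizontal axis, 1 library each) for genes with at least 50 UMIs in both libraries together in 5 classes, with 95% counting intervals and dashed lines at 2-fold. Ern2 lies to the right of 0 in both goblet classes and absorptive nuclei, and Hspa5 to the left of 0 in all 5 classes, with an interval that includes 0 in early goblet, mature goblet and stromal nuclei.

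The likeness of patterns was measured by Pearson's r of log2(CPM + 10) over the 9 classes, computed in each library. The classes of a library share its depth and free RNA, so these values are descriptions. Among the members, Ern2 and Pdia5 were most alike (0.921 in WT and 0.914 in HIF-1α KO), and Ern2 and Creb3l1 had 0.880 in WT and 0.872 in HIF-1α KO. Hspa5 and Creb3l1 had -0.12 in WT and -0.02 in HIF-1α KO. Among 7870 genes with at least 200 UMIs in each library, Ern2 was most like Galnt10 (0.976 and 0.984), 9230116L04Rik and Galnt5, with the values in WT and HIF-1α KO given for the first. Creb3l1 was most like Sil1 (0.946 and 0.955), Slc39a11 and Slc1a5, and Pdia5 most like Slc12a8 (0.972 and 0.941), Prkrip1 and Dnajc10. Atf6 was most like Pex5l (0.991 and 0.938), Ptprn2 and Syt7. Creb3l4, itself below 200 UMIs in each library and so resting on few UMIs per class, was most like Ehd4 (0.904 and 0.932), Rapgef3 and Reg4. Ern1 was most like Pdxdc1 (0.945 and 0.924), Cog3 and Exph5, and Xbp1 most like Dap (0.886 and 0.894), Slc38a9 and Slc25a12. Hspa5 was most like Wdr26 (0.881 and 0.875), Lbh and Fgfr1op2, Pdia4 most like Rcc2 (0.927 and 0.893), Uck2 and Larp1, and Sel1l, with the lowest first values of the 10 genes, most like Pitpna (0.799 and 0.840), Rab10 and Trim14.

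The rest of the pathway was followed through 6 lists with 162 genes in the files. Of 141 genes measured in mature goblet and absorptive nuclei, 28 or 19.9% were at least 2-fold higher in mature goblet nuclei in both libraries, beside the 5.78% of all genes, and 1 was at least 2-fold lower. Among chaperones and disulfide enzymes 8 of 26 were higher and 0 lower. Qsox1, a sulfhydryl oxidase of the secretory route, had 365 against 29.9 CPM in WT and 216 against 22.1 CPM in HIF-1α KO. Agr2, a disulfide isomerase needed for mucin, had 562 against 58.4 CPM in WT and 692 against 77.7 CPM in HIF-1α KO. Txndc5, a further member of that family, had 126 against 26.2 CPM in WT and 129.5 against 22.1 CPM in HIF-1α KO. These 3 genes had the largest ratios of the list by the lower of both libraries, and Tmx1 and Ero1lb were lowest by the higher of both libraries, the measure used for the lowest genes of every list, with log2 ratios of -0.64 in WT and -0.94 in HIF-1α KO and of -0.46 and -0.78. The median of the list was 0.51 in WT and 0.84 in HIF-1α KO.

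Among stress sensors and transcription factors 3 of 13 were higher and 1 was lower. The median of the list was 0.07 in WT and 0.22 in HIF-1α KO, close to the 0.02 and 0.14 over all genes measured. Creb3l2, a relative of Creb3l1, had 137 against 29.9 CPM in WT and 86.4 against 17.9 CPM in HIF-1α KO. Eif2ak3 (PERK), the sensor of the remaining branch of the response, had 265 against 79.6 CPM in WT and 295 against 82.9 CPM in HIF-1α KO. Eif2ak4, which senses amino acid shortage, had 140.3 against 48.9 CPM in WT and 121 against 33.7 CPM in HIF-1α KO. Creb3l3 was the gene that was lower, with 1 UMI in mature goblet and 31 in absorptive nuclei of WT and 2 and 173 in HIF-1α KO. Atf6b, the relative of Atf6, had log2 ratios of -0.35 in WT and -0.16 in HIF-1α KO.

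ER-associated degradation had 3 of 21 genes higher and 0 lower. Edem3, which trims the sugars of misfolded proteins, had a log2 ratio of 1.68 in WT and 1.82 in HIF-1α KO, Sel1l3 of 1.30 and 1.36 and Herpud1 of 1.16 and 1.01, while Nploc4 at -0.16 and -0.05 and Man1b1 at -0.39 and 0.10 stood lowest. Translocation and N-glycosylation had 5 of 37 higher and 0 lower. Sec11c, of the signal peptidase, had a log2 ratio of 1.28 in WT and 1.33 in HIF-1α KO, Tram1 of 1.22 and 1.34 and Stt3a, a catalytic subunit of the oligosaccharyltransferase, of 1.12 and 1.37, and Spcs1 at -1.25 and -0.83 and Sec61g at -0.05 and -0.54 stood lowest. ER to Golgi transport had 5 of 33 higher and 0 lower. Kdelr3, a receptor that returns ER proteins, had a log2 ratio of 2.57 in WT and 2.99 in HIF-1α KO, Mia3 (TANGO1), which exports large cargo, of 2.23 and 2.15, and Lman1, a cargo receptor, of 1.89 and 2.11, while Mia2 stood at -0.62 and -0.58 and Sar1b at -0.70 and -0.49. The medians of these 3 lists lay from 0.45 to 0.78 in both libraries.

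The outputs of the integrated stress response, which PERK shares with other sensors such as Eif2ak4, had 4 of 11 genes higher and 0 lower. The medians of the list were 0.17 in WT and -0.21 in HIF-1α KO. Asns, asparagine synthetase, had 18.96 against 3.62 CPM in WT and 15.1 against 2.19 CPM in HIF-1α KO. Nupr1, a stress-induced nuclear protein, had 96.7 against 23.5 CPM in WT and 241 against 39.4 CPM in HIF-1α KO. Slc7a11, the cystine transporter, had 26.6 against 4.98 CPM in WT and 18.4 against 4.72 CPM in HIF-1α KO. The list thus held genes on both sides of the absorptive level, with Sesn2 and Ppp1r15a lowest at log2 ratios of -0.71 in WT and -0.74 in HIF-1α KO and of -0.25 and -1.52.

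**Figure D5:**
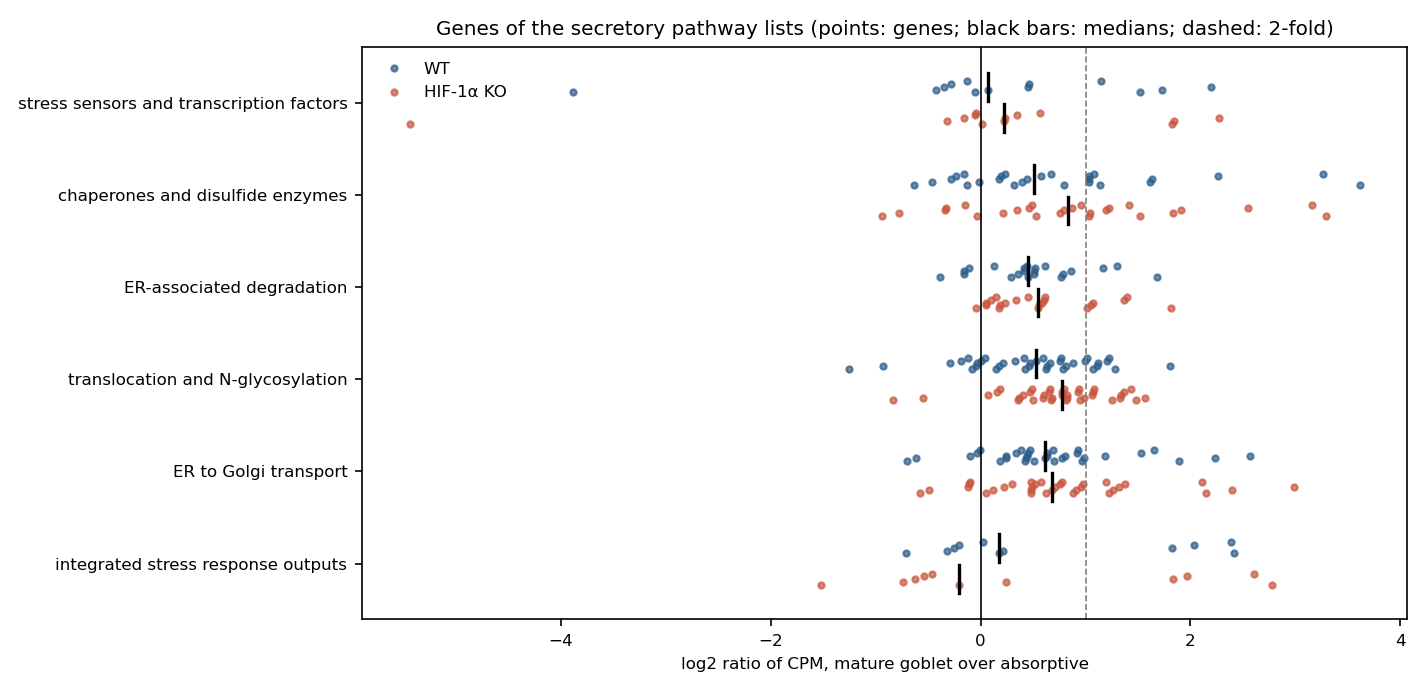
The log2 ratio of CPM of mature goblet over absorptive nuclei (horizontal axis) for the measured genes of the 6 pathway lists, 1 point per gene and library (WT blue, HIF-1α KO red), with medians as black bars and the dashed line at 2-fold. Medians lie from 0.45 to 0.84 for the 4 lists of folding, degradation, translocation and transport genes, and Creb3l3 is the point farthest to the left.

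In early goblet nuclei 33 of 138 pathway genes (23.9%) were at least 2-fold higher than in absorptive nuclei and 4 were lower, beside the 13.4% of all genes called higher. No share of all genes called lower was counted for either goblet class over absorptive nuclei. Between mature and early goblet nuclei 1 of 132 was higher and 3 were lower, beside the 3.25% and 3.36% of all genes. Between HIF-1α KO and WT, 3 of 120 pathway genes were at least 2-fold higher and 1 lower in early goblet, 5 and 5 of 130 in mature goblet, 6 and 3 of 137 in absorptive, 0 and 0 of 62 in immune and 1 and 2 of 111 in stromal nuclei. The shares of all genes past 2-fold in either direction in these classes were 5.84%, 6.42%, 8.57%, 7.42% and 3.89%. The median log2 ratio of HIF-1α KO over WT of the chaperones and disulfide enzymes, the list closest to Hspa5 and Pdia4, was -0.25 in early goblet, -0.11 in mature goblet, -0.38 in absorptive, -0.16 in immune and -0.05 in stromal nuclei, beside 0.09, 0.05, -0.08, 0.17 and 0.05 over all genes measured. The medians of the other 5 lists ran from -0.08 to 0.08 in early goblet, -0.34 to 0.11 in mature goblet, -0.22 to -0.10 in absorptive, -0.35 to 0.45 in immune and -0.05 to 0.04 in stromal nuclei.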

How the data were processed

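Per the submitters' processing notes, reads of the 10x 3′ libraries were processed with Cell Ranger 7.0.1 against mm10, and the authors deposited whole-number UMI counts per gene and barcode, not normalized. Whether intronic reads were counted is not given in the sources used here. The study's filter of 400 to 5000 detected genes and at most 10% mitochondrial UMIs was applied. No doublet caller was run, and an alternative left out the 5% of nuclei with most UMIs. Nuclei were clustered in Seurat 5.3.0 under R 4.3.3 after integration of both libraries (2000 variable genes without the members and pathway genes, 30 components, resolution 1, seed 1). A cluster was named when at least 3 markers of a class had a log2 ratio to all other nuclei of at least 1 (10 CPM added) and were found in at least 10% of its nuclei, and when no other class had more markers among its top 10 genes. Goblet clusters were called early or mature by the higher marker score. UMIs were summed per library and class and scaled to CPM. Poisson, binomial and conditional ratio intervals are exact, at 95%, from scipy 1.17.1 under Python 3.11.15. With 1 library per genotype no test was made, and counts of genes past 2-fold take its place. The ratio interval was tried on simulated Poisson counts of early goblet nuclei with known folds. A 2-fold call of HIF-1α KO over WT was tried there too, in code written apart from that of the results. The calls between classes were not tried in this way. For the other pathway genes, the 3 highest and 2 lowest per list by the ratio of mature goblet over absorptive nuclei (the lower of both libraries for the highest, the higher for the lowest) were named, and for each member the 3 genes most like it by the lower Pearson's r of both libraries. Among the genes with the element, Dnajc3, Ero1b and Hsp90b1 were named after their values were seen. Symbols that stand for more than 1 gene, such as Ddit3, were left out of counts over genes. The members, lists and markers were chosen with earlier results of these data known. Alternatives covered barcodes, integration, resolution, class assignment, thinning, scaling (edgeR 4.0.16 TMM and DESeq2 1.42.0 median-of-ratios factors), thresholds and the mean over single nuclei.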

Additional observations from a re-analysis of the deposited data

Results flagged for a closer look

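The HIF-1α KO over WT ratio of Pdia5 pointed in opposite directions in different classes. Its log2 ratio lay above 0 with its whole interval in stromal (0.73), cycling (0.49), stem (0.45) and mature goblet nuclei (0.28), and below 0 in crypt enterocyte nuclei (-0.52). In the mature goblet class, Pdia5 had 142 CPM in WT and 189 CPM in HIF-1α KO in the Clca1 cluster and 458 and 444 CPM in the other cluster, and the Clca1 cluster held 759700 of 1054638 UMIs of the class in WT and 1926487 of 2987686 in HIF-1α KO. The make-up of the class thus moved with the ratio of 0.28, and its part in that ratio was not tested. The difference between the classes was not tested, since each class of a genotype comes from 1 library.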

How the results depend on the processing

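No paired analysis was possible because each genotype has 1 library. Over 15 alternative settings, 120 counts of members stayed within 1.5 times the main count and 33 moved. Of the single log2 ratios, 1195 stayed within their interval, 112 moved beyond it, and the log2 ratio of Creb3l4 in mature goblet over stromal nuclei of HIF-1α KO went from 1.47 to -0.036 without integration. In all, 61 values of 31 ratios had another sign than the main value, and 1 of them, that of Creb3l1 in immune nuclei given above, had a main interval that did not include 0. At 1.5-fold, 8 genes were called higher in mature goblet (12.99% of all genes) and 7 in early goblet (24.9%) than in absorptive nuclei, where 4 and 4 were called at 2-fold, and 2 were lower in mature than in early goblet nuclei (11.4%). The last count, 1 at 2-fold, was also 2 without integration (6.37% of all genes), at resolution 0.5 (5.18%) and when thinned to 1000 UMIs (2.775%). It was 2 as well with the Clca1 cluster alone (6.59%, chosen after seeing the data) and with the minimum of UMIs halved (4.31%). At 3-fold it was 0 (0.674%). For mature goblet over stromal nuclei the count went from 4 to 2 with classes by the marker score of each nucleus (6.26% of all genes). It was also 2 at 3-fold (3.75%). For HIF-1α KO over WT at 1.5-fold, 2 genes were called in early goblet (21.01% of all genes), mature goblet (21.4%), absorptive (25.2%) and stromal nuclei (17.4%) and 3 in immune nuclei (23.5%). The early goblet call of Creb3l4 fell to 0 with all barcodes (5.74% of all genes), the marker score (5.695%), thinning (4.52%), 3-fold (1.21%) and a doubled minimum (3.39%). The log2 ratio of Creb3l4 there ran from 0.72 to 1.31. The absorptive call of Ern2 fell to 0 at 3-fold (2.29% of all genes) and, through the minimum of UMIs, with thinning (4.69%). Its log2 ratio ran from 1.07 to 2.43 over the settings. The count of 0 rose to 1 in mature goblet nuclei with the marker score (6.68% of all genes) and the halved minimum (10.39%). In immune nuclei it rose to 1 with all barcodes (7.35%), resolution 0.5 (7.52%), the mean CPM of single nuclei (7.73%) and the halved minimum (11.11%). In stromal nuclei it rose to 1 with resolution 0.5 (3.87%) or 2 (3.98%), the marker score (4.66%) and the halved minimum (6.72%). TMM and median-of-ratios factors moved no count and kept Ern2 higher and Hspa5 and Pdia4 lower in HIF-1α KO in each of the 5 main classes in which they were measured, with the log2 KO over WT of Hspa5 in absorptive nuclei at -0.31 under TMM. Beyond the thresholds and minimums themselves, the cause of these changes was not tested.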
